A study of Mus musculus with 12 samples.

Results

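The genes described here are the enzymes that build cholesterol and the genes that sense, move and store it: 30 genes, fixed by name, of the 43629 genes in a mouse B cell RNA-seq count table. They comprise 7 enzymes of the mevalonate steps (Acat2, Hmgcs1, Mvk, Pmvk, Mvd, Idi1, Fdps), 11 enzymes from squalene to sterol (Fdft1, Sqle, Lss, Cyp51, Tm7sf2, Msmo1, Nsdhl, Hsd17b7, Ebp, Sc5d, Dhcr7), 5 genes of transcriptional control (Srebf1, Srebf2, Scap, Insig1, Insig2), 4 genes of the liver X receptor (LXR) and export arm (Nr1h2, Nr1h3, Abca1, Abcg1) and 3 genes of storage and transport (Soat1, Npc1, Stard4). The genes were picked for their place in the pathway, with earlier results of these data known, and the 30 genes all passed the filter on low counts in both comparisons below.

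The study sequenced RNA of B cells sorted from mouse spleen, in 3 groups of 4 libraries. Marginal zone (MZ) B cells lacking Zfp36l1 carried the genotype Zfp36l1fl/flERT2cre/+ (replicates 1, 2, 7 and 8), and the control MZ B cells were ERT2cre/ERT2cre (replicates 3, 4, 5 and 6). Follicular (FO) B cells came from Zfp36l1fl/fl cre- mice (replicates 3, 4, 7 and 8), and the strain label of the 12 libraries is Zfp36l1tm1.1Tnr. Zfp36l1 encodes an RNA-binding protein that recognises AU-rich elements in the 3′ untranslated region (UTR) of mRNAs and promotes their decay. ERT2cre is a Cre recombinase that tamoxifen activates; the sources used here do not state the dosing, the age of the mice or whether each library is a separate mouse, so the p-values measure the spread between these libraries, which may be technical. The deficient and control MZ groups also differ in their number of Cre copies. Per the series' design text the MZ libraries were made with a SMARTer kit and read as pairs, and the FO libraries with a stranded TruSeq kit and read from a single end. The extraction protocol in the labels, however, names the SMARTer kit for every library, so the kit of the FO libraries is uncertain. Cell type, read layout, genotype and, by the design text, kit differ together between control MZ and FO cells and cannot be told apart.

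Cholesterol is built in the cytosol and endoplasmic reticulum: acetyl-CoA units are joined to mevalonate, mevalonate is turned into isoprenoid units, these are joined to squalene, and squalene is closed into a ring and trimmed to cholesterol. When membrane sterol is low, SCAP carries the SREBP transcription factors (genes Srebf1 and Srebf2) to the Golgi, where they are cut and released to switch on the synthesis genes; INSIG proteins hold SCAP back when sterol is plentiful. Oxysterols in turn activate LXR (Nr1h2, Nr1h3), which switches on the exporters ABCA1 and ABCG1. Lymphocytes raise sterol synthesis when they grow and divide, and MZ and FO B cells are the resident splenic B cell types that respond, respectively, to blood-borne antigens and with T cell help.

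The 12 libraries held 28938453 to 40664963 counts each. Levels are given as CPM, counts rescaled to a common library total with the TMM factors of edgeR over the 12 libraries. Zfp36l1 itself measured 22.0 to 37.5 CPM in deficient MZ, 109.6 to 125.8 in control MZ and 352 to 396 in FO, so the labels and the targeted gene go together. Cr2 (CD21), a sort marker of MZ cells, was at 3850 to 4430 CPM in control MZ and 1140 to 1530 in FO, and Fcer2a (CD23), the FO sort marker, at 69.6 to 170 and 1150 to 1420. Cd79a, a B cell receptor subunit, ranged from 3020 to 4490 CPM over the 12 libraries. Of 7 B cell markers, 4 were higher and 2 lower in control MZ than in FO, the lower ones being Pax5 (28.8 to 51.8 against 259 to 275 CPM) and Cd22 (1720 to 1920 against 2820 to 3220 CPM). In control MZ against FO, 6 of 6 MZ markers were higher and 3 of 4 FO markers lower. The other FO marker, Cxcr5, was higher in control MZ, at 631 to 701 against 550 to 593 CPM. By the test described below, 42.6% of all genes were higher and 38.8% lower in control MZ. Among markers of other spleen cells, T cell Cd3e was at 0 in the 4 control MZ libraries and at most 0.0608 CPM elsewhere, Cd8a reached 3.16 CPM in deficient MZ, and Lck lay between 36.3 and 47.5 CPM over the 12 libraries. 
Between deficient and control MZ cells, which also differ in Cre copies, 2 of the 30 sterol genes were called. Fdps, the enzyme that makes farnesyl diphosphate, rose, and Soat1, the enzyme that esterifies cholesterol for storage, fell, by edgeR's quasi-likelihood test with Benjamini-Hochberg adjustment over 13987 genes at an adjusted p under 0.05. The other 28 genes did not pass, which does not show that they were unchanged. Over all genes tested, 3.7% were called, 2.29% higher and 1.4% lower in deficient MZ, and the 4 deficient and 4 control libraries did not overlap for 11.9% of genes; among the 30 sterol genes the groups did not overlap for 2, Fdps and Soat1. The median log2 change was 0.04 over the 30 genes and -0.0037 over all genes tested.

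The difference between control MZ and FO cells was much wider and ran in both directions. Of the 30 genes, 6 were higher and 16 lower in control MZ, and 8 did not pass the same test over 13843 genes. Against this stands a background in which 81.5% of all genes were called, 42.6% higher and 38.8% lower, and in which 76.9% of genes did not overlap between the groups; 18 of the 30 sterol genes did not overlap. The median log2 difference of the 30 genes was -0.31, beside 0.05 over all genes tested. When libraries were scaled by their totals alone, every log2 difference of MZ over FO moved up by about 0.32, and the split became 10 higher and 11 lower. Directions below are relative to TMM scaling.

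**Figure D1:**
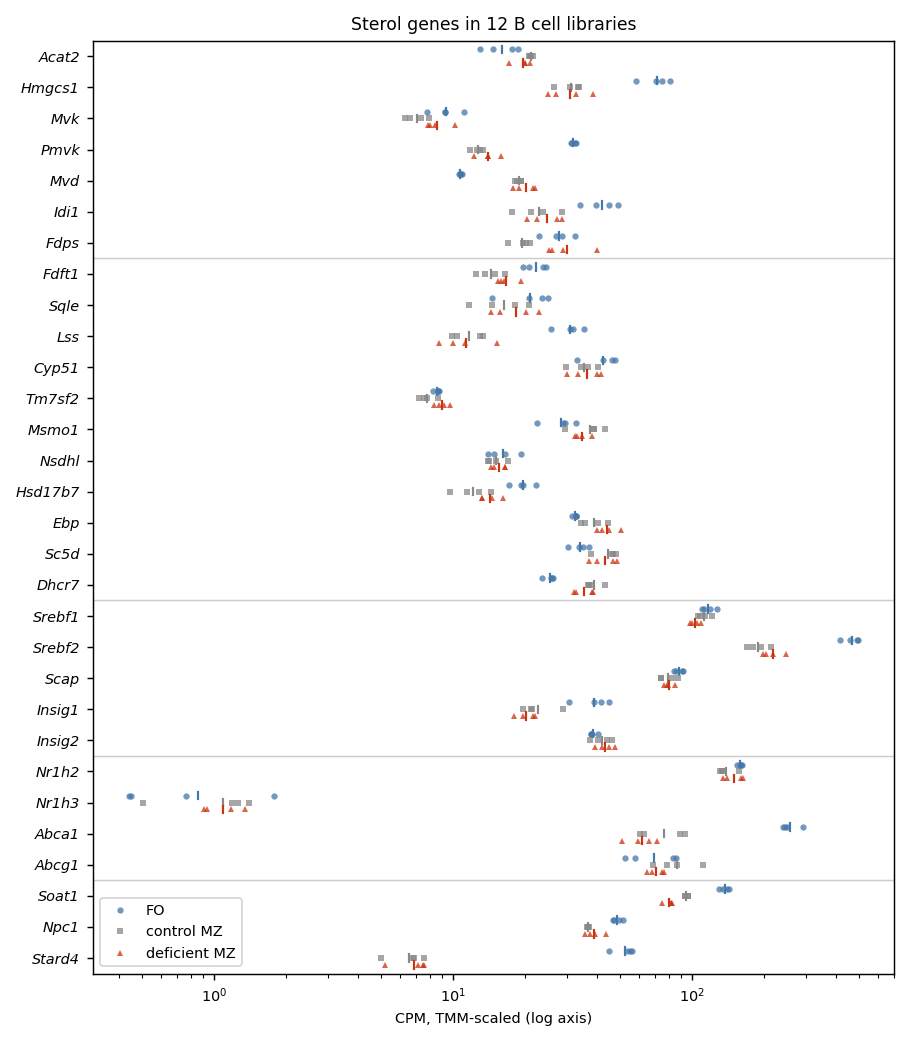
CPM (log axis) of the 30 sterol genes, from Acat2 at the top to Stard4 at the bottom, in FO (circles), control MZ (squares) and deficient MZ (triangles), 4 libraries each; short bars are group means and grey lines part the 5 roles. The MZ groups lie together for most genes, and FO stands apart for Hmgcs1, Pmvk, Lss, Srebf2, Abca1 and Stard4.

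**Figure D2:**
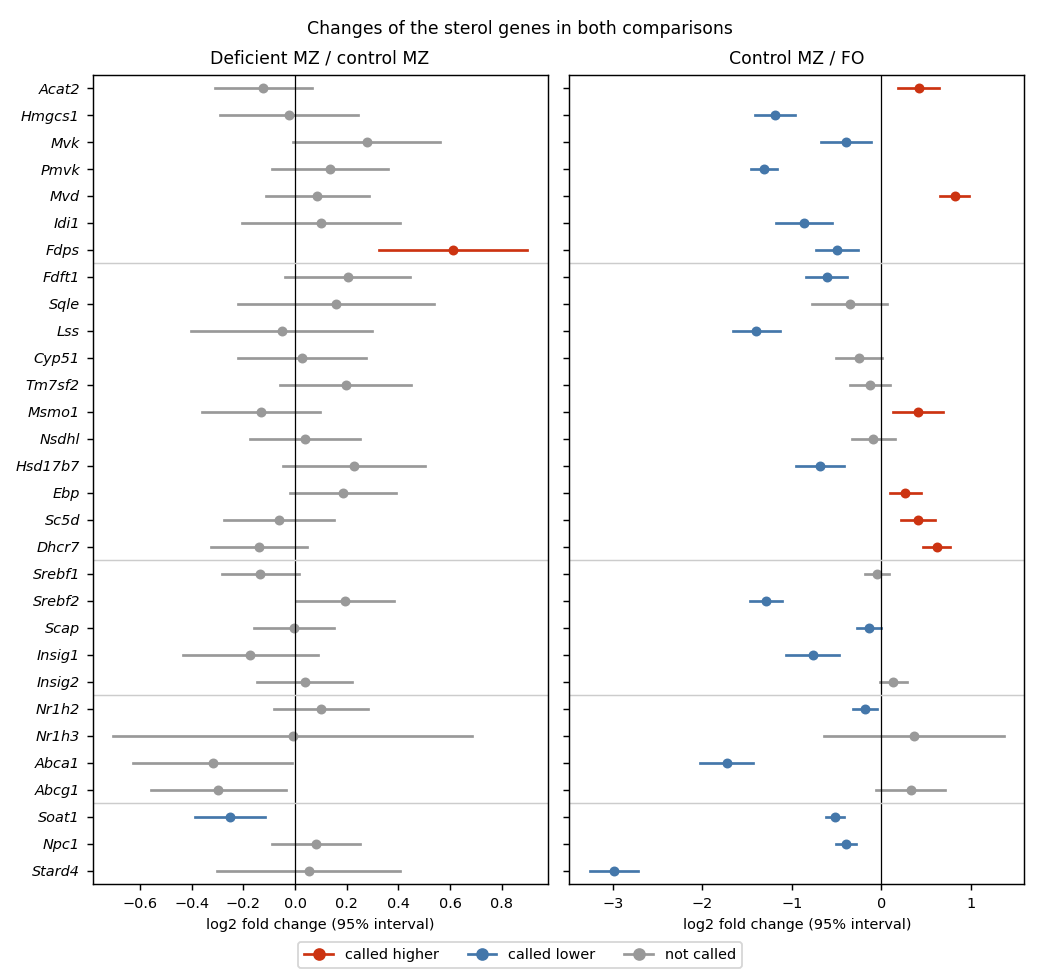
log2 fold change and 95% interval from edgeR's quasi-likelihood fit for each sterol gene, deficient over control MZ on the left and control MZ over FO on the right (the horizontal scales differ). Only Fdps and Soat1 are coloured on the left; 6 genes are called higher and 16 lower on the right, from Mvd at 0.82 to Stard4 at -2.99.

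In the mevalonate steps, Fdps was the gene that rose in deficient MZ cells. FDPS joins isoprenoid units into farnesyl diphosphate, the branch point from which squalene, dolichol, ubiquinone and protein prenyl groups are made (gene ENSMUSG00000059743, GRCm38 chr3:89093588-89101959, minus strand). Fdps measured 39.8, 28.7, 25.8 and 25.3 CPM in deficient replicates 1, 2, 7 and 8, against 20.2, 20.9, 17.0 and 19.5 CPM in control replicates 3, 4, 5 and 6. The groups did not overlap, and deficient replicate 1 stood highest. The log2 change was 0.61 ± 0.13 (SE), with a 95% interval from 0.33 to 0.90 and an adjusted p of 0.0204, a 1.53-fold rise. The call was lost without control replicate 5 (adjusted p = 0.058) or control replicate 6 (adjusted p = 0.0533); over all alternatives tried the log2 change lay between 0.45 and 0.69. In the FO libraries Fdps measured 32.3, 22.8, 26.8 and 28.6 CPM, above the control MZ range and overlapping the deficient MZ range; control MZ over FO gave a log2 difference of -0.50 ± 0.11 (adjusted p = 0.000943 by the same test). Both comparisons share the control libraries. Part of the Fdps transcript is repeated elsewhere: 21.4% of its 100-base windows also occur in Gm43738, Gm3571 or Gm5873, and the pair of these with counts, Gm3571 and Gm5873, held 0 to 3 reads per library.

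The other mevalonate genes did not pass in deficient MZ. Mvk, mevalonate kinase, had a log2 change of 0.28 with an interval from -0.01 to 0.56, and Hmgcs1, the HMG-CoA synthase, one of -0.02 with an interval from -0.29 to 0.24. Pmvk, Mvd, Idi1 and Acat2 lay between -0.12 and 0.14.

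Between control MZ and FO cells, 5 of the 7 mevalonate enzymes were lower and 2 higher in control MZ. Over all genes tested, 38.8% were lower and 42.6% higher, so calls in both directions are no property of these enzymes. Hmgcs1, which condenses acetyl-CoA with acetoacetyl-CoA, measured 33.6, 33.1, 30.8 and 26.5 CPM in control MZ and 80.6, 58.1, 70.7 and 74.6 in FO. That is 2.27-fold lower in MZ (log2 -1.18 ± 0.10, adjusted p = 3.54e-07), with no overlap. Pmvk, phosphomevalonate kinase, measured 12.6, 11.7, 13.0 and 13.3 CPM in control MZ and 32.2, 31.0, 32.5 and 31.3 in FO, 2.49-fold lower (log2 -1.32 ± 0.07, adjusted p = 2.33e-09). The next enzyme, Mvd, which decarboxylates the product of PMVK, went the other way: 19.3, 18.5, 18.2 and 19.1 CPM in control MZ against 10.6, 10.6, 10.7 and 10.9 in FO. Mvd was 1.77-fold higher in MZ (log2 0.82 ± 0.07, adjusted p = 4.96e-07), the largest rise among the 30 genes.

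Acat2, the cytosolic thiolase that makes acetoacetyl-CoA, was also higher in control MZ, at 20.7 to 21.7 CPM against 12.9 to 18.6 (log2 0.42, adjusted p = 0.00294). Its transcript shares 28.9% of its windows with Acat3, which held 3 to 11 reads per library. Idi1, the isomerase of the isoprenoid unit, was 1.82-fold lower, at 17.6 to 28.6 CPM in control MZ and 33.8 to 49.1 in FO (adjusted p = 0.000128). Mvk was lower by a log2 difference of -0.40 (adjusted p = 0.0138), with ranges of 6.30 to 7.89 and 7.78 to 11.1 CPM that overlapped. With library totals as the scaling, Fdps and Mvk no longer passed (log2 -0.18 and -0.08).

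**Figure D3:**
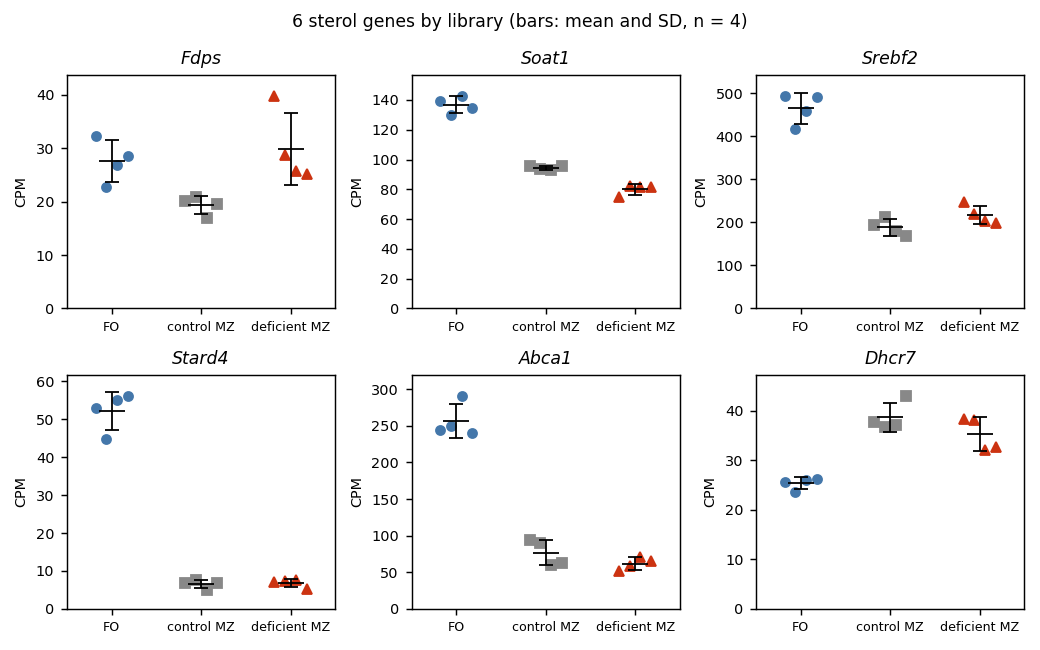
CPM of Fdps, Soat1, Srebf2, Stard4, Abca1 and Dhcr7 in each library (points; the axis starts at 0), with the mean and SD of each group of 4. Fdps is higher and Soat1 lower in deficient than in control MZ; Srebf2, Stard4 and Abca1 are highest in FO and Dhcr7 is lowest there.

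None of the 11 enzymes from squalene to sterol passed in deficient MZ cells; by unadjusted p as well, none was under 0.05. Their log2 changes ran from -0.14 (Dhcr7) to 0.23 (Hsd17b7), with 7 above and 4 below 0. Sqle, the squalene epoxidase and a rate-limiting step, measured 22.9, 20.2, 15.6 and 14.4 CPM in deficient MZ and 18.1, 20.8, 14.5 and 11.6 in control MZ. These ranges overlapped, and its interval, from -0.22 to 0.54, was the widest among the synthesis enzymes.

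In control MZ against FO, 3 of these 11 enzymes were lower, 4 were higher and 4 did not pass. Of all genes tested, 81.5% were called. The last 3 enzymes in order, Ebp, Sc5d and Dhcr7, were among those higher in MZ. Lss, which closes the sterol ring, measured 12.9, 13.4, 10.4 and 9.89 CPM in control MZ and 35.3, 25.8, 31.6 and 30.7 in FO. It was 2.63-fold lower in MZ (log2 -1.40 ± 0.12, adjusted p = 4.11e-07). Fdft1, squalene synthase, was lower at 12.4 to 16.5 against 19.5 to 24.3 CPM (log2 -0.61, adjusted p = 0.000167), and Hsd17b7, a ketone reductase of the demethylation complex, at 9.71 to 14.4 against 17.1 to 22.3 CPM (log2 -0.69, adjusted p = 0.00026). Of the late steps, Dhcr7, the reductase that makes cholesterol from 7-dehydrocholesterol, measured 37.7, 36.8, 37.1 and 43.0 CPM in control MZ and 25.7, 23.5, 25.9 and 26.2 in FO. That is 1.54-fold higher in MZ (log2 0.62 ± 0.07, adjusted p = 3.68e-06). Sc5d, the desaturase just before it, was at 37.8 to 48.1 against 30.1 to 36.9 CPM (log2 0.41, adjusted p = 0.000742).

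Ebp, the isomerase upstream of SC5D, was higher by a smaller log2 difference of 0.27 (34.3 to 44.4 against 31.4 to 32.7 CPM, adjusted p = 0.00689). Msmo1, the methyl oxidase, was higher by 0.41 with overlapping ranges of 29.3 to 43.2 and 22.4 to 32.7 CPM (adjusted p = 0.00977). Sqle, Cyp51, Tm7sf2 and Nsdhl did not pass; their differences were -0.36, -0.25, -0.13 and -0.09, and the interval for Sqle reached from -0.77 to 0.06.

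Summed over the 18 synthesis enzymes, FO libraries held 539, 420, 486 and 508 CPM, control MZ libraries 412, 432, 399 and 375, and deficient MZ libraries 479, 450, 384 and 389. Deficient and control MZ overlapped in this sum, and FO replicate 4 lay inside the control MZ range. The mevalonate step sums did not overlap with TMM scaling, at 177 to 230 CPM in FO and 123 to 141 in control MZ. Those of the squalene to sterol steps were 243 to 309 and 252 to 290 and overlapped. Both statements depend on the scaling. With library totals the mevalonate step sums overlapped, whereas the squalene to sterol sums did not and were higher in control MZ. The sum over the 18 enzymes in FO replicate 4 then lay below the control MZ range.

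Many enzymes shared their deviations from library to library inside a group. FO replicate 4 was the lowest of its group for 16 of the 18 enzymes, while it was the lowest for 31.5% of all 13843 genes. FO replicate 3 was the highest for 11, against 26.4% of all genes. Deficient replicate 1 was the highest of its group for 13 enzymes, against 33.7% of all genes. Deficient replicates 8 and 7 were the lowest for 10 and 7, against 18.5% and 26.2% of all genes. In control MZ, replicate 6 was the lowest for 10 and replicate 4 the highest for 9, against 25.8% and 19.9% of all genes. The median Pearson r between enzymes over the 12 libraries, after each group's mean was removed, was 0.35; by gene the median r with the other enzymes was highest for Sqle (0.77), Idi1 (0.73), Cyp51 (0.70) and Hsd17b7 (0.70) and lowest for Pmvk (-0.16). No median r for other gene sets is given here, so 0.35 has no background to be set against. These values describe libraries that share depth, cell type and preparation. Srebf2, Insig1 and Stard4 were lowest in FO replicate 4 as well, at 416, 30.4 and 44.9 CPM.

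FO replicate 4 also differed from the other FO libraries in other cell markers. Its 13 macrophage markers summed to 41.5 CPM, against 20.1 to 23.3 in the other FO libraries, and its 6 cycling markers to 45.2 against 21.2 to 23.5. Deficient replicate 1 had the highest macrophage sum of its group, 55.4 CPM against 40.3 to 41.3. The part of these markers in the enzyme pattern was not tested. Without FO replicate 4 the control MZ against FO comparison called 8 sterol genes higher and 18 lower: Sqle (log2 -0.51, adjusted p = 0.0139) and Cyp51 (-0.37, 0.00399) joined the lower genes, and Nr1h3 (0.98, 0.0395) and Abcg1 (0.41, 0.0494) the higher ones, by the same edgeR test.

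**Figure D4:**
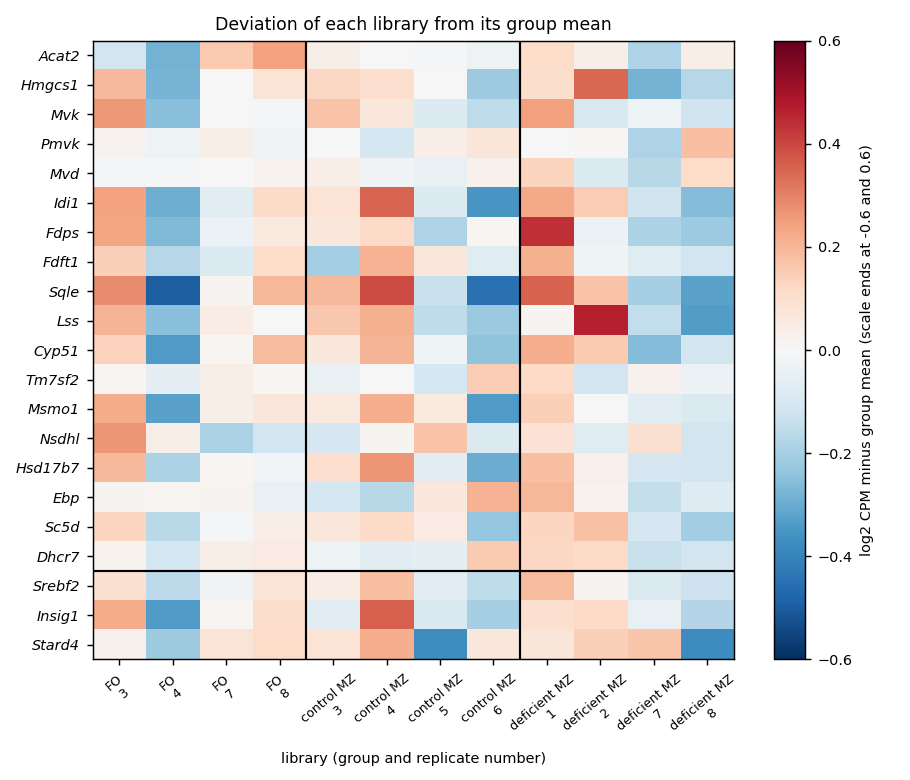
Colour gives log2 CPM minus the mean of the library's own group for the 18 synthesis enzymes (above the line) and Srebf2, Insig1 and Stard4 (below it), in 12 libraries. FO replicate 4, the lowest of its group for 16 of 18 enzymes, shows as a blue column, and deficient replicate 1, the highest for 13, as a red one.

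Among the control genes none passed in deficient MZ cells. Srebf2, the SREBP gene most tied to cholesterol synthesis (ENSMUSG00000022463, GRCm38 chr15:82147181-82205379, plus strand), measured 247, 219, 204 and 198 CPM in deficient MZ and 193, 213, 179 and 169 in control MZ. The ranges overlapped; the log2 change was 0.19 with an interval from 0.0041 to 0.38 (unadjusted p = 0.0459, adjusted p = 0.251 in edgeR's test). Srebf1, whose products favour fatty acid synthesis, had a log2 change of -0.13 and Insig1 one of -0.17, with intervals that included 0. Scap and Insig2 lay at -0.0046 and 0.04.

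In control MZ against FO, Srebf2 was 2.45-fold lower. FO libraries measured 494, 416, 458 and 491 CPM, and no MZ library of either genotype exceeded 247. The log2 difference was -1.29 ± 0.08 (adjusted p = 1.71e-08). Insig1, an SREBP target that feeds back on SCAP, was lower at 19.5 to 28.8 against 30.4 to 45.0 CPM (log2 -0.77, adjusted p = 0.000211), while its relative Insig2 did not pass, at 37.2 to 46.1 against 37.6 to 40.5 CPM. Insig2 was called higher in control MZ with library totals as the scaling (log2 0.45) and without control replicate 6. Srebf1 overlapped between the groups, at 106 to 122 against 110 to 127 CPM (log2 -0.05 with TMM scaling, 0.27 with library totals). Scap was called lower by -0.14 (adjusted p = 0.0487), a call that 7 other settings lost and library totals turned to 0.18.

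Per kilobase of annotated exon, both SREBP genes had higher group means than any of the 18 enzymes in control MZ. There, Srebf2 stood at 26.2 CPM per kb, Srebf1 at 19.9, Insig2 at 12.1, Scap at 10.7 and Insig1 at 7.33, while the 18 enzymes lay between 1.08 (Lss) and 16.7 (Ebp). Mvd, at 10.1, was next among the enzymes. The length used is the union of all annotated exons, 10787 bases for Lss and 2310 for Ebp, so this order depends on the annotation. Nr1h2 was the highest of the 30 genes, at 41.3 ± 3.69 (SD, n = 4), and Nr1h3 the lowest, at 0.43 ± 0.16.

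Promoters are shown for 4 of these genes, picked by their direction: Hmgcs1, Srebf2 and Insig1 were lower in MZ cells and Sc5d was higher. The 4 do not stand for the SREBP targets as a set. Of the 18 synthesis enzymes, the genes that SREBP switches on, 6 were higher, 8 lower and 4 not called in control MZ against FO. Over all genes tested, 42.6% were higher and 38.8% lower. RefSeq (GRCm38.p6) gave promoter entries for 24 of the 30 genes, 33 promoters of 300 bases in all, from 250 bases before to 50 bases after the transcript start. The 4 motifs searched on both strands were a sterol response element core, TCACNCCAC, the CCAAT box of NF-Y, CCAAT, the GC box of SP1, GGGCGG, and an E-box, CACGTG. Capitals mark matches, and no match of one motif overlaps another in these 4 sequences. The sequences run 5′ to 3′ on the gene's strand at chr13:119690101-119690400 (Hmgcs1, plus), chr15:82147019-82147318 (Srebf2, plus), chr5:28071162-28071461 (Insig1, plus) and chr9:42264251-42264550 (Sc5d, minus).
Hmgcs1: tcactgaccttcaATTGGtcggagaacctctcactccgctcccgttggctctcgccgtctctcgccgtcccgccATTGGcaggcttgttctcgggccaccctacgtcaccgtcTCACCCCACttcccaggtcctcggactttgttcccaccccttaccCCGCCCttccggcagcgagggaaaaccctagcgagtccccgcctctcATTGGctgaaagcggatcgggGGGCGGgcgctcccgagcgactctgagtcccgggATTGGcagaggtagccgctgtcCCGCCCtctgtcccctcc
Srebf2: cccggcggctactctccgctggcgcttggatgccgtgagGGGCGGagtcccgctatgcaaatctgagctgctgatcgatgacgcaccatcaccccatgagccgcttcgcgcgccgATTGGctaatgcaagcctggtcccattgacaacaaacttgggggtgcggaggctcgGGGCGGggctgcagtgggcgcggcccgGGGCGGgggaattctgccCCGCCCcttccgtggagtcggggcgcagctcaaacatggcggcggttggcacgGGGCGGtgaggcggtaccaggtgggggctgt
Insig1: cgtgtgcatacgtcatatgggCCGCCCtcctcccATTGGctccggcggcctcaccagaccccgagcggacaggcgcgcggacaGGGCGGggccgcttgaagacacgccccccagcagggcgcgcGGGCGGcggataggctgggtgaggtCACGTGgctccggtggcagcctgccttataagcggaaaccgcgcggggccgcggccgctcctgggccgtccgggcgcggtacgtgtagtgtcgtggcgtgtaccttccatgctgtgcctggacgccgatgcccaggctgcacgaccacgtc
Sc5d: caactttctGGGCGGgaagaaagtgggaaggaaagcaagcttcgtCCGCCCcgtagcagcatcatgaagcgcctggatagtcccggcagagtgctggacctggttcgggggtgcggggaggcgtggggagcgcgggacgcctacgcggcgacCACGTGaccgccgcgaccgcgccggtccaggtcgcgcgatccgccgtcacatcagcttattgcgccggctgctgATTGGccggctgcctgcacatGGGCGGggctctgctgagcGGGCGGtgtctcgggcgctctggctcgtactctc

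Hmgcs1 holds the one match to the sterol element core among the 33 promoters, at position -137 counted from the transcript start, and 408 of 32851 mouse promoters (1.24%) hold one. Around it lie CCAAT boxes read on the opposite strand as ATTGG, at -237, -176, -45 and 11. The CCAAT box was present in 20 of the 33 promoters and in 37.4% of all promoters, the GC box in 25 and in 35.7%, and the E-box in 7 and in 7.15%. Insig1 and Sc5d each have an E-box, at -101 and -98. Any part of the motifs in the directions was not tested. A match is a description of the letters in this window.

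In the LXR and export arm, neither the receptors nor the exporters passed in deficient MZ. Abca1, which loads cholesterol onto lipid-poor apolipoprotein, measured 51.0, 59.1, 71.2 and 65.9 CPM in deficient MZ and 93.3, 89.2, 60.4 and 63.1 in control MZ. The control libraries fell into a high pair (replicates 3 and 4) and a low pair (5 and 6), and the low pair lay inside the deficient range. The log2 change was -0.32 with an interval from -0.63 to -0.01 (unadjusted p = 0.0436, adjusted p = 0.246). Abcg1, which exports cholesterol to mature lipoproteins, measured 74.8, 67.6, 76.3 and 64.6 CPM in deficient MZ and 111, 86.6, 68.8 and 78.7 in control MZ (log2 -0.30, unadjusted p = 0.0289, adjusted p = 0.202), again with overlap. The receptor Nr1h2 (LXR beta) had a log2 change of 0.10, and Nr1h3 (LXR alpha) one of -0.01 with an interval from -0.70 to 0.69.

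Against FO, Abca1 was 3.32-fold lower in control MZ: FO libraries measured 245, 249, 291 and 240 CPM (log2 -1.73 ± 0.14, adjusted p = 1.58e-07). Abcg1 did not share that difference. It measured 85.3, 82.9, 57.3 and 52.2 CPM in FO, overlapping control MZ, with a log2 difference of 0.33 and an interval from -0.06 to 0.71. Abcg1 was called higher in control MZ in 5 of 15 alternatives, among them library totals (log2 0.65, adjusted p = 0.00375 by edgeR's test). Nr1h2 was called lower by -0.18 (130 to 157 against 153 to 162 CPM, adjusted p = 0.0168), which library totals turned to 0.14. Nr1h3, the LXR gene that macrophages express most, was low in all groups, at 0.50 to 1.40 CPM in control MZ and 0.44 to 1.77 in FO. Its highest FO value was in replicate 4.

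Storage and transport held both the second change in deficient MZ and the widest difference from FO. Soat1, the acyltransferase that turns free cholesterol into esters (ENSMUSG00000026600, GRCm38 chr1:156424525-156474331, minus strand), measured 74.6, 82.5, 81.6 and 81.2 CPM in deficient MZ and 95.7, 93.5, 93.2 and 95.7 in control MZ. The groups did not overlap and each was narrow. Soat1 fell by 0.25 ± 0.06 on the log2 scale, with an interval from -0.39 to -0.11 (adjusted p = 0.043, 1.19-fold). Its direction held in every alternative, from -0.27 to -0.22, but the call was lost without any single one of the 8 libraries and without a filter on low counts (adjusted p = 0.0578); over the alternatives the adjusted p ran from 0.00247 to 0.112. FO libraries measured 140, 130, 143 and 134 CPM, so control MZ was lower than FO by 1.43-fold (log2 -0.52 ± 0.05, adjusted p = 4.12e-07).

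Stard4 and Npc1 did not pass in deficient MZ, with log2 changes of 0.05 and 0.08. Stard4, a soluble carrier of sterol between membranes and a known SREBP target, measured 6.85, 7.53, 4.99 and 6.78 CPM in control MZ, 7.09, 7.43, 7.55 and 5.19 in deficient MZ and 53.1, 44.9, 55.0 and 56.1 in FO. It was 7.94-fold lower in control MZ than in FO (log2 -2.99 ± 0.12, adjusted p = 3.65e-10), the largest difference among the 30 genes. Npc1, which lets cholesterol out of lysosomes, was lower by -0.40 (36.1 to 36.8 against 46.7 to 51.3 CPM, adjusted p = 1.5e-05); library totals brought this to -0.08, not called.

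Because Zfp36l1 binds AU-rich elements, the heptamer TATTTAT was searched in the longest annotated 3′ UTR of each gene (GENCODE M21). It occurred in 6 of the 30 genes (20%) and in 29.3% of 11402 tested genes. Hsd17b7 had 5, Insig1 and Insig2 had 2 each, and Sc5d, Srebf1 and Soat1 had 1 each. Fdps had none in its UTR of 55 bases. The sites of Hsd17b7, the sterol gene with most of them, and that of Soat1, one of the changed genes, are printed with the heptamer in capitals, each on its gene's strand in GRCm38.
Hsd17b7, 2401 bases into the UTR, chr1:169950618-169950640, minus strand: ttgactttTATTTATtgtacagg
Hsd17b7, 2730 bases into the UTR, chr1:169950289-169950311, minus strand: ttttcatgTATTTATtttgcatg
Hsd17b7, 3003 bases into the UTR, chr1:169950016-169950038, minus strand: aaccaaaaTATTTATttgaggtc
Hsd17b7, 3197 bases into the UTR, chr1:169949822-169949844, minus strand: aagctgtgTATTTATgtctctta
Hsd17b7, 3299 bases into the UTR, chr1:169949720-169949742, minus strand: aaatcattTATTTATctaacact
Soat1, 5963 bases into the UTR, chr1:156425082-156425104, minus strand: tccctgtgTATTTATtctctctt

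Of the 6 genes with a heptamer, 5 were not called in deficient MZ and 1, Soat1, fell; over all genes tested 2.29% were called higher and 1.4% lower, so counts this small say nothing particular about the 6. Hsd17b7 measured 16.1, 14.5, 13.2 and 13.2 CPM in deficient MZ and 12.8, 14.4, 11.4 and 9.71 in control MZ, which overlap, with a log2 change of 0.23 and an interval from -0.05 to 0.50. Insig1 lay at -0.17, Insig2 at 0.04, Sc5d at -0.06 and Srebf1 at -0.13, none of them called. Fdps, the gene that rose, has no heptamer in that UTR.

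Genes of neighbouring pathways were counted in the same fit, where 3.7% of all genes were called in deficient against control MZ; against that share the few calls below are a description of the lists. Of 15 isoprenoid branch genes, which use the product of FDPS, 1 fell and none rose: Srd5a3, a polyprenol reductase for dolichol, at 53.5, 48.8, 42.6 and 48.9 against 60.4, 59.4, 68.2 and 61.9 CPM (log2 -0.38, adjusted p = 0.0162). This call was lost without control replicate 5 (adjusted p = 0.0505) or deficient replicate 8 (0.0538), and 1 isoprenoid gene was called higher with DESeq2 and with the 12 libraries in 1 edgeR fit. Of 18 sterol transport and hydrolysis genes 1 rose, Osbpl5, an oxysterol-binding-protein relative, at 72.9, 62.6, 55.7 and 63.5 against 43.1, 47.6, 41.1 and 42.1 CPM (log2 0.54, adjusted p = 0.00341). Of 10 LXR and oxysterol genes 1 fell, the LXR target Mylip (log2 -0.31, adjusted p = 0.0421, lost in 7 of 14 alternatives). No gene of 14 in fatty acid synthesis or of 10 in SREBP processing passed, though 2 of the latter were called lower without deficient replicate 2.

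Against FO, where 42.6% of all genes were called higher and 38.8% lower in control MZ, calls in both directions are no property of a list, and the counts are given as a description. In control MZ, 9 isoprenoid branch genes were higher and 5 lower of 15; Srd5a3 was higher (log2 0.92), and Nus1 (-1.07), a subunit of the dolichol-making prenyltransferase, and Rabggtb (-0.88), of Rab prenylation, were lower. Fatty acid synthesis had 5 higher and 6 lower of 14, with Mlxip (-1.34), the desaturase Scd1 (-1.38) and the acetyl-CoA carboxylase Acaca (-1.50) lower. SREBP processing had 5 higher and 2 lower of 10: the ubiquitin ligase Rnf139 (0.48) was higher, and Mbtps2 (-1.16), the protease that makes the second cut in SREBP, was lower. LXR and oxysterol genes had 3 higher and 5 lower of 10, among them Abca7 (-1.84), Mylip (-1.04) and Hsd3b7 (-1.84). Sterol transport had 9 higher and 5 lower of 17, with Stard5 (1.30) higher and Osbpl5 (-1.07) and Gramd1a (-0.72) lower. The largest adjusted p among these named genes was 5.8e-06, for Mbtps2, by edgeR's test.

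Some markers of the sorted subsets and of other cells were called in both comparisons. Of all genes tested, 2.29% were called higher and 1.4% lower in deficient against control MZ. In control MZ against FO the shares were 42.6% higher and 38.8% lower, so calls in that comparison are common among all genes. Between the MZ groups, 2 of 4 FO markers were called higher in deficient MZ, among them Klf2 (140 to 153 against 33.2 to 49.2 CPM), with list sums of 1608 to 1954 against 1418 to 1529 CPM. Of 6 MZ markers, Dtx1 was called lower and Cd1d1 higher, with list sums of 6258 to 6785 against 7207 to 7559 CPM; neither list overlapped between the groups in its sum. In deficient against control MZ, 4 of 6 cycling markers were called higher (sums of 33.2 to 46.4 against 23.3 to 32.8 CPM), as were 1 of 12 macrophage markers tested (Adgre1), 2 of 3 T cell, 1 of 6 erythroid, 0 of 5 platelet, 0 of 5 dendritic cell and 0 of 4 plasma cell markers. In control MZ against FO, 9 of 11 macrophage markers were higher and 1 lower (39.1 to 43.7 against 20.1 to 41.5 CPM), 5 of 5 platelet markers were higher (11.4 to 19.8 against 3.31 to 4.02 CPM), and 2 of 4 dendritic cell, 1 of 3 T cell, 1 of 4 erythroid, 2 of 4 plasma cell and 1 of 6 cycling markers were higher, with 1 T cell and 2 plasma cell markers lower. Their part in the sterol gene differences was not tested, and in these bulk libraries fewer cells of a type and less RNA per cell cannot be told apart.

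The authors' deposited tables of DESeq2 results gave the same call, at an adjusted p under 0.05, for Fdps and Soat1 and for no other sterol gene in deficient MZ. In control MZ against FO the authors' deposited table called 6 of the 30 higher and 15 lower, the 21 with the same direction as here; Scap, at an adjusted p of 0.0615 in the authors' deposited table, was called only here.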

How the data were processed

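RNA of sorted splenic B cells was sequenced in 12 libraries. Per the submitters' processing notes, TopHat2 2.0.12 (after Trim Galore), HTSeq for counting and DESeq2 1.10.1 were used, with GRCm38. The sources used here do not state the strand setting of the counting, so antisense overlap (up to 18.3% of exon bases, for Fdft1) cannot be separated. The authors deposited raw counts per Ensembl gene, used here, and tables of log2 fold changes and adjusted p-values, from which the authors' values were copied. Of 43629 genes, 42462 matched GENCODE M21. Groups follow the genotype and cell type labels.

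The 8 libraries of a comparison were fitted alone with edgeR 4.0.16 in R 4.3.3 (TMM scaling, filterByExpr with a minimum count of 10, glmQLFit and glmQLFTest, Benjamini-Hochberg over all genes tested, called at an adjusted p under 0.05). Levels are CPM with TMM factors over the 12 libraries; per-kilobase levels use the union of annotated exons. No 2 libraries were identical: replicate pairs differed by a chi-square per gene of 5.78 to 48.6, where sampling noise gives about 1. Control MZ replicates 3 and 4 lay closest in their group, at 6.48 against 17.7 to 22.8 for its other pairs. FO replicates 7 and 8 did so in theirs, at 5.78 against 17.4 to 25.9. The reason was not tested, and the fits treat the 4 libraries of a group as independent. Depth was 28938453 to 40664963 counts. The fit was tested on simulated data. Replicate numbers 3 and 4 occur in both control MZ and FO, but their deviations correlated at -0.05 and -0.12 and the genotypes differ, so they were not treated as pairs. The text names the 30 genes, Zfp36l1, Cr2, Fcer2a and Cd79a, and from each related list up to 3 called genes with the smallest p whose groups do not overlap; some genes that this rule names are not reported here, and other single marker genes were named after their values were seen. The 30 genes and all lists were chosen with earlier results of these data known. Alternatives were RLE scaling, library totals, no filter, DESeq2 1.42.0, 1 fit of 12 libraries, a replicate block, leaving out each library and, chosen after seeing the data, a robust quasi-likelihood fit.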

Additional observations from a re-analysis of the deposited data

Results flagged for a closer look

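Of 90 groups of 4 values (30 genes in 3 groups), 4 held a library whose gap to its nearest neighbour was, as a share of the group's range, above Dixon's 95% critical value; chance flags about 1 in 20 groups. Soat1 in deficient MZ replicate 1 measured 74.55 CPM, below the other deficient libraries at 81.23 to 82.46 CPM. In control MZ replicate 6, Dhcr7 measured 42.98 CPM against 36.77 to 37.75 CPM in the other control libraries. Nr1h2 stood out in the same control library, at 156.8 CPM against 130 to 133.8 CPM. Ebp in FO replicate 8 measured 31.38 CPM, below the other FO libraries at 32.63 to 32.66 CPM.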

How the results depend on the processing

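In deficient against control MZ, the counts that moved by over 1.5 times were 0 sterol genes lower and 307 genes lower without a filter on low counts, 567 genes higher and 482 lower with DESeq2, and 343 lower with the 12 libraries in 1 fit. Leaving out each library gave 0 to 1 sterol genes higher, 0 lower in each case, 171 to 293 genes higher and 82 to 190 lower; these fits have fewer libraries. In control MZ against FO, library totals gave 10 sterol genes higher. With that scaling Insig2 (log2 0.45) and Abcg1 (0.65) gained calls, and Srebf1 turned to 0.27, Scap to 0.18 and Nr1h2 to 0.14. Leaving out each library gave 6 to 8 sterol genes higher and 15 to 18 lower. A replicate block on numbers 3 and 4, which share only a number, gave 6 sterol genes higher and 13 lower; Mvk, Fdps, Ebp and Insig1 lost their calls and Abcg1 gained one. No paired analysis was possible because deficient and control MZ share no replicate number. The robust fit, chosen after seeing the data, gave 322 genes higher and 204 lower in the first comparison and left the counts of sterol genes called as they were in both. Counted as pairs of a gene and a setting, calls were lost in 20 pairs in the first comparison (Soat1 9, Mylip 7, Fdps 2, Srd5a3 2) and gained in 2 (Cr2); in the second they were lost in 24 and gained in 14. The 3 changes of sign counted with library totals are those where at least 1 of the 2 fits made a call. Of these, Srebf1 was not called with TMM scaling and Nr1h2 was not called after the change (adjusted p = 0.0593 by edgeR's test). Other differences from FO changed sign without a call as positive: over the alternatives Sqle, Cyp51, Tm7sf2 and Nsdhl reached up to 0.04, 0.06, 0.19 and 0.23. Nr1h3 reached at most 1.77 CPM, and its FO libraries held 14, 56, 25 and 16 reads, so its differences are loosely estimated.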
